A study of Homo sapiens with 6 samples.

Results

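ESM1 and 9 other genes of blood vessel growth were followed in LX-2 cells that overexpressed fibroblast activation protein α (FAPα). The 10 members are ESM1, the ligands VEGFA, VEGFB, VEGFC and PGF, the receptor FLT1, the coreceptors NRP1 and NRP2, the angiopoietin gene ANGPT1 and the angiopoietin-like gene ANGPTL4. They were selected by gene symbol out of 60748 genes in the deposited table. ESM1 was chosen because its level was among those that rose most between these same libraries, so its difference is given as a description with no test. The other 9 were chosen as families, with earlier results of these data known.

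LX-2 is an established human hepatic stellate cell line, and stellate cells are the pericytes of the liver sinusoid. RNA was sequenced from cells infected with the empty lentiviral vector (LX-2Vector, n = 3) and from cells infected with the same vector carrying FAPα (LX-2FAP, n = 3), all cultured for 24 h. Per the study's methods, the vector uses a ubiquitin promoter and also carries EGFP and puromycin resistance, and clones were selected with puromycin, so a difference between clones and an effect of FAPα cannot be told apart in this design. The labels do not say whether the 3 libraries of a group came from separate cultures, so p-values measure the spread between these libraries, which may be technical.

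As background, VEGF ligands are secreted dimers that bind receptor tyrosine kinases on endothelial cells, and neuropilins hold the ligand at the receptor as well as binding class 3 semaphorins. Angiopoietins act on the TIE2 receptor TEK to steady or loosen vessels, and ESM1 encodes endocan, a secreted dermatan sulfate proteoglycan best known as a product of endothelial tip cells under VEGF stimulation. In the liver, stellate cells lie against the sinusoidal endothelium and are a source of such factors, and VEGFA and ANGPTL4 are classical hypoxia-induced genes.

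The fitted level of ESM1 was 52.8% higher in LX-2FAP cells, while the mean level of VEGFA was lower without passing the test. Of the other members, NRP1 was higher and VEGFB lower in LX-2FAP cells at an adjusted p under 0.05, both by small amounts, and the mean level of VEGFC was higher without passing the test. PGF, FLT1 and NRP2 did not pass the test, nor did ANGPTL4. ANGPT1 had too few counts to be tested.

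The promoter sequences of 3 members are shown because ESM1 and VEGFB had differences of opposite sign and ANGPTL4 is a textbook target of the hypoxia-inducible factors. Each is the 250 bases upstream of the RefSeq start (GRCh38.p14), 5′ to 3′ on the gene's strand, and capitals mark the core letters of the hypoxia response element (ACGTG or GCGTG, searched on both strands, so CACGT and CACGC also appear) and the TATA letters TATAAA, searched on the gene's strand. The ESM1 window is chr5:54985594-54985843 on the minus strand, the VEGFB window chr11:64234334-64234583 on the plus strand and the ANGPTL4 window chr19:8363905-8364154 on the plus strand.
ESM1: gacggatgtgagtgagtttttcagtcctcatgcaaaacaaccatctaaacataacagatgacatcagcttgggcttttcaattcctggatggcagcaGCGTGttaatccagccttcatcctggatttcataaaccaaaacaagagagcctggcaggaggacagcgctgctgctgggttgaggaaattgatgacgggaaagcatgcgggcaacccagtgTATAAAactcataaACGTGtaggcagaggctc
VEGFB: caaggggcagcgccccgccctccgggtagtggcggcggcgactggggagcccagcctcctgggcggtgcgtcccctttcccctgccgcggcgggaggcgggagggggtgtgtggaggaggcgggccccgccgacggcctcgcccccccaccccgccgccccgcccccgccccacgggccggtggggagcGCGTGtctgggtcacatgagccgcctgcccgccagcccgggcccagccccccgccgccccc
ANGPTL4: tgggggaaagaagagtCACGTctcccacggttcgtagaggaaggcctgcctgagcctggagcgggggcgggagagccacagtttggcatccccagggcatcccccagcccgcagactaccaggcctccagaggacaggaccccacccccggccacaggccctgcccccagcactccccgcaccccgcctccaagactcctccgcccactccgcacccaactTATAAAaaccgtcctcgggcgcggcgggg

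The ESM1 window held hypoxia core letters that began 153 and 18 bases upstream of the start and a TATAAA that began 32 bases upstream. The VEGFB window held 1 core, 61 bases upstream, and no TATAAA. The ANGPTL4 window held 1 core, 234 bases upstream, and a TATAAA 29 bases upstream. Over all 35116 promoter windows of the same length, 43.2% held a hypoxia core and 6.80% a TATAAA, so a core alone is common. The GC content was 47.6% for ESM1, 82.8% for VEGFB and 68.8% for ANGPTL4, against a median of 58.0% over all windows. In the other windows, VEGFC held 1 core, 59 bases upstream, FLT1 held 1 core and a TATAAA, and NRP2 held none of these letters. PGF has 2 start sites in the table, of which 1 had a core. These 7 members had a sequence in the RefSeq table, and VEGFA, NRP1 and ANGPT1 are named only. A match in these letters is a description of the window, not a binding site.

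Total counts ran from 17355700 to 26352060 per library. Values per library are given in the order of replicates 1, 2 and 3 of each group. FAP itself, the overexpressed protease gene, had 49, 42 and 55 counts in the LX-2Vector libraries and 14864, 15160 and 14805 counts in the LX-2FAP libraries, a log2 fold change, here called log2 change, of 8.33 (SE 0.13, edgeR quasi-likelihood adjusted p = 4.47e-16). By CPM (counts-per-million, each library scaled by the TMM method), FAP stood at 620.1, 842.8 and 706.7 in the LX-2FAP libraries, lowest in replicate 1. On the first principal component of log2 CPM, LX-2FAP replicate 1 lay at 1.9, nearest to the LX-2Vector libraries at -12, -11.6 and -20.7. LX-2FAP replicates 2 and 3 lay at 25.4 and 17. The part of the FAP level in the place of a library was not tested. Of the stellate markers, VIM stood at 300.8 FPKM (fragments per kilobase of gene length, scaled to library size) in LX-2Vector cells and COL1A1 at 34.3 FPKM, while ACTA2 stood at only 1.29 FPKM and DES at 0.0114 FPKM. Of 15 endothelial markers 13 had a mean under 1 FPKM in LX-2Vector cells, with PECAM1, CDH5 and ERG at 0.553, 0.0517 and 0.0104 FPKM, while TIE1 and EGFL7 stood at 12.5 and 3.98 FPKM, and the liver cell marker ALB stood at 0.0297 FPKM. Of the 18275 genes that passed the expression filter, 5.29% were called at an edgeR adjusted p under 0.05, 2.57% as higher in LX-2FAP cells and 2.73% as lower. For 26.4% of tested genes, all normalized values of one group lay above those of the other. Neither a run date nor a batch is in the labels, so nothing could be compared within batches.

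ESM1 (ENSG00000164283, GRCh38 chr5:54977864-55022671, minus strand, protein coding) had 35.3, 40.8 and 37.6 CPM in the LX-2Vector libraries and 52.9, 61.9 and 58.6 CPM in the LX-2FAP libraries. Every LX-2FAP library lay above every LX-2Vector library, and LX-2FAP replicate 1 was the lowest of its group. The mean was 37.9 ± 2.78 CPM in the first group and 57.8 ± 4.54 CPM in the second (SD, n = 3 each), which the fit gave as a log2 change of 0.61 (SE 0.07). These values rest on 716 to 932 reads per LX-2Vector library and 1113 to 1268 per LX-2FAP library. Over 14 other ways of processing the counts or leaving out a library, the ESM1 log2 change stayed between 0.55 and 0.68. In bulk RNA, more RNA per cell and more cells that express the gene cannot be told apart.

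Among the 11556 tested genes with a mean of 100 counts or more, ESM1 held rank 3 by log2 change, with the gene above it at 1.01 and the gene below it at 0.57. Among all 18275 tested genes, 91 had a larger positive value, of which 2 had a mean of 100 counts or more. The overexpressed FAP, at 8.33, was among these 2. The part of the merged ESM1 exons that another gene also covers is 1.63% on the same strand, and the files do not say how reads in such overlaps were counted.

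**Figure D1:**
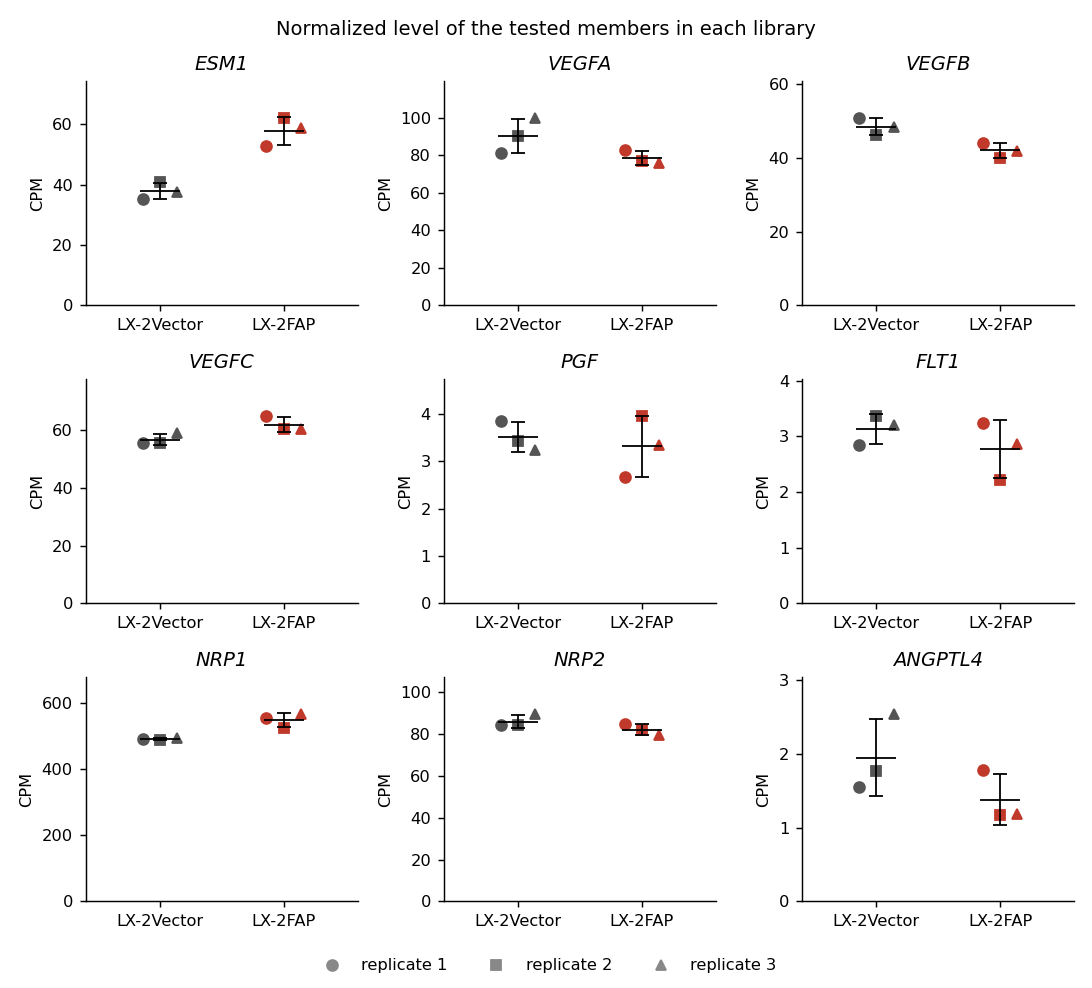
Normalized level (CPM, linear axis from 0) of the 9 tested members in each of the 6 libraries. Points are libraries, with the marker giving the replicate number, and the black bars are the mean and SD of 3 libraries. VEGFB, VEGFC and NRP1 show no overlap between the groups, which held for 26.4% of all tested genes. ESM1, at a mean of 37.9 and 57.8 CPM, shows none either, but it was chosen for its rise in these libraries.

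VEGFA, the main growth factor for vessel sprouting (ENSG00000112715, chr6:43770184-43786487, plus strand), had 81.1, 90.1 and 99.6 CPM in the LX-2Vector libraries and 82.9, 76.8 and 76.0 CPM in the LX-2FAP libraries. LX-2FAP replicate 1 lay above LX-2Vector replicate 1, so the groups overlapped. The VEGFA log2 change was -0.20 (SE 0.06, 95% interval -0.33 to -0.06, edgeR adjusted p = 0.0826), which did not pass the test. It passed without LX-2Vector replicate 1 (-0.27, adjusted p = 0.0339) and without LX-2FAP replicate 1 (-0.24, adjusted p = 0.0403), and it shrank to -0.11 (adjusted p = 0.342) without LX-2Vector replicate 3. It also passed without the filter on low counts (adjusted p = 0.00637), where the fit gave each gene the pooled spread in place of its own, and its adjusted p ran from 0.00637 to 0.342 over 14 alternatives. The ESM1 over VEGFA ratio of FPKM, which no scaling of a library can change, was 2.33, 2.43 and 2.02 in the LX-2Vector libraries and 3.42, 4.32 and 4.13 in the LX-2FAP libraries.

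VEGFB, a ligand of FLT1 and NRP1 with a weak effect on sprouting (ENSG00000173511, chr11:64234538-64238793, plus strand), had 50.7, 46.2 and 48.5 CPM in the LX-2Vector libraries and 44.0, 40.1 and 42.0 CPM in the LX-2FAP libraries. Every LX-2FAP value lay below every LX-2Vector value. The mean went from 48.5 ± 2.25 to 42.1 ± 1.94 CPM, a log2 change of -0.21 (SE 0.06, edgeR adjusted p = 0.0473). This call lay at the edge of the threshold and held in 6 of 14 alternatives. It was lost with DESeq2 (adjusted p = 0.0536), with limma on log2 FPKM (0.119 and 0.117 for the 2 pseudocounts), without LX-2Vector replicates 1, 2 or 3 in turn (0.133, 0.0574 and 0.111) and without LX-2FAP replicate 2 (0.201) or 3 (0.211), and the log2 change stayed between -0.24 and -0.17.

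VEGFC, the ligand of the lymphatic receptor FLT4 and of KDR (ENSG00000150630, chr4:176683538-176792727, minus strand), had 55.5, 55.3 and 58.8 CPM in the LX-2Vector libraries and 64.6, 60.4 and 60.4 CPM in the LX-2FAP libraries. The groups did not overlap, with the closest pair at 58.8 and 60.4 CPM. The log2 change was 0.13 (SE 0.05, 95% interval 0.02 to 0.24), and the edgeR adjusted p of 0.142 did not pass. VEGFC was called in 0 of 14 alternatives, with adjusted p-values from 0.121 to 0.303. PGF, a ligand of FLT1 (ENSG00000119630, chr14:74941834-74955784, minus strand), had 102, 60 and 69 counts in the LX-2Vector libraries and 64, 71 and 70 in the LX-2FAP libraries. The PGF groups overlapped, with a log2 change of -0.11 (SE 0.16, 95% interval -0.45 to 0.23, edgeR adjusted p = 0.754) that turned to 0.04 without LX-2FAP replicate 1.

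The VEGFC over VEGFB ratio set these 2 ligands against each other within a library, a comparison chosen after their values were seen and given with no test. It was 0.824, 0.902 and 0.914 by FPKM in the LX-2Vector libraries and 1.11, 1.13 and 1.08 in the LX-2FAP libraries. VEGFB was thus the higher of the pair in each LX-2Vector library and VEGFC in each LX-2FAP library on the FPKM scale, and this order depends on the gene lengths used. With the length of the longest coding transcript in place of the deposited one, VEGFB was the higher in LX-2Vector cells and the pair overlapped in LX-2FAP cells. The VEGFC over VEGFA ratio was 3.47 ± 0.268 in LX-2Vector cells and 4.34 ± 0.0436 in LX-2FAP cells (SD, n = 3 each).

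**Figure D2:**
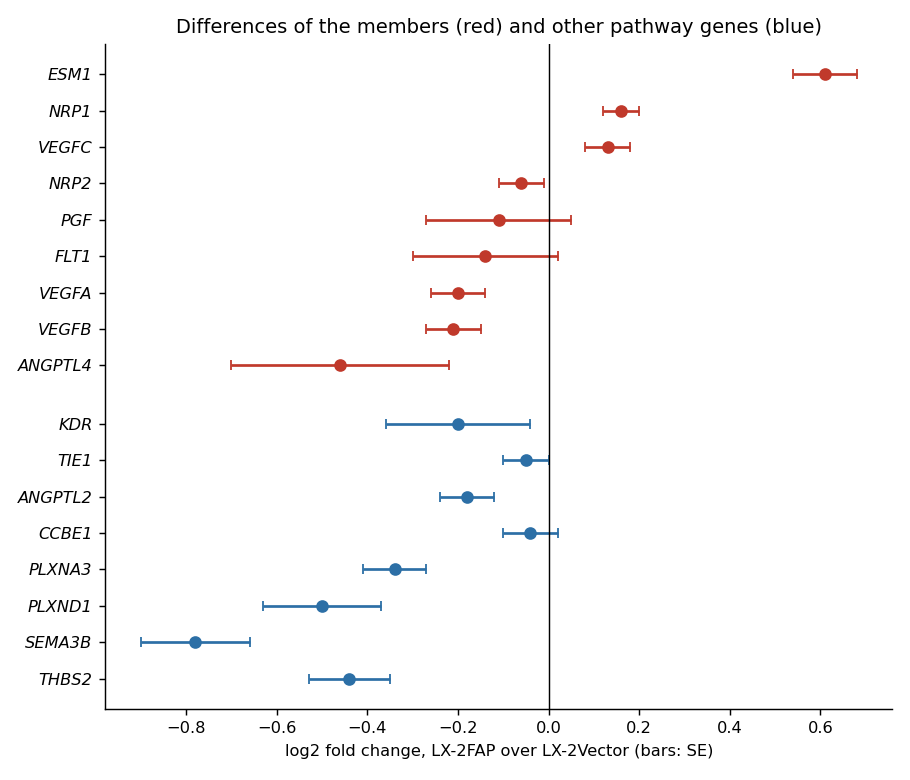
Log2 change of LX-2FAP over LX-2Vector (x axis) with its standard error for the 9 tested members (red) and for other pathway genes named by rule (blue). ESM1, which was chosen for its rise, stands apart at 0.61, and NRP1 and VEGFC lie just above 0 at 0.16 and 0.13. VEGFA and VEGFB lie together at -0.20 and -0.21, and the 3 semaphorin and plexin genes lie between -0.34 and -0.78.

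NRP1, the coreceptor for VEGFA and SEMA3A (ENSG00000099250, chr10:33177492-33336262, minus strand), had 490.8, 489.3 and 494.0 CPM in the LX-2Vector libraries and 555.5, 525.5 and 566.4 CPM in the LX-2FAP libraries. The groups did not overlap, and the LX-2Vector libraries lay close together. The mean went from 491.4 ± 2.39 to 549.1 ± 21.2 CPM, a log2 change of 0.16 (SE 0.04, edgeR adjusted p = 0.0284). NRP1 was called in 7 of 14 alternatives. The call was lost with library size alone (0.13, adjusted p = 0.0579), with limma (adjusted p = 0.133 and 0.134), without LX-2Vector replicates 1, 2 or 3 in turn (0.0543, 0.0665 and 0.0577) and without LX-2FAP replicate 3 (0.199). A noncoding gene on the opposite strand shares 4.87% of the NRP1 exon bases, and the use of strand in counting is not given in the sources used here.

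NRP2, the paralog that binds VEGFC and SEMA3F (ENSG00000118257, chr2:205681990-205798133, plus strand), had 84.3, 84.2 and 89.5 CPM in the LX-2Vector libraries and 85.1, 82.0 and 79.5 CPM in the LX-2FAP libraries. The groups overlapped, with a log2 change of -0.06 (SE 0.05, 95% interval -0.16 to 0.04, edgeR adjusted p = 0.461). The NRP1 over NRP2 ratio of FPKM was 7.03, 7.01 and 6.66 in the LX-2Vector libraries and 7.87, 7.73 and 8.59 in the LX-2FAP libraries, a ratio chosen after its parts were seen and not tested. FLT1, the receptor of VEGFA, VEGFB and PGF (ENSG00000102755, chr13:28300344-28495145, minus strand), had 75, 59 and 68 counts in the LX-2Vector libraries and 78, 40 and 60 in the LX-2FAP libraries. FLT1 overlapped between the groups, at a log2 change of -0.14 (SE 0.16, 95% interval -0.49 to 0.21, edgeR adjusted p = 0.673), so no difference was detectable at this depth.

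ANGPTL4, a secreted inhibitor of lipoprotein lipase (ENSG00000167772, chr19:8363289-8374373, plus strand), had 41, 31 and 54 counts in the LX-2Vector libraries and 43, 21 and 25 in the LX-2FAP libraries. These gave 1.55, 1.77 and 2.54 CPM against 1.79, 1.17 and 1.19 CPM, so LX-2FAP replicate 1 lay within the range of the controls and the other two lay below it. The log2 change was -0.46 (SE 0.24, 95% interval -0.96 to 0.05, edgeR adjusted p = 0.275). It ran from -0.71, without LX-2FAP replicate 1, to -0.21, without LX-2Vector replicate 3 and with limma on log2(FPKM + 1), over 13 alternatives and was called in 0 of them. ANGPT1, the activating TEK ligand (ENSG00000154188, chr8:107249482-107498055, minus strand), had 3, 3 and 2 counts in the LX-2Vector libraries and 5, 0 and 0 in the LX-2FAP libraries. ANGPT1 was left out of the test by the filter, and no fold is given for so few reads.

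Of the 9 members other than ESM1, 8 passed the expression filter and 2 were called, NRP1 higher and VEGFB lower, against 5.29% of all tested genes. An unadjusted p under 0.05 was reached by 4 of the 8, against 22.2% of all tested genes, and 3 of the 8 had groups that did not overlap, against 26.4% of all tested genes. Their median log2 change was -0.12, beside -0.01 over all tested genes. The calls did not follow the size of the change: NRP1 was called at a rise of 11.8%, with 8587 to 13316 reads per library. A fitted difference of -27.2% for ANGPTL4 was not called, its libraries holding 21 to 54 reads. VEGFA, at -12.8% and 1382 to 2142 reads, was not called either. The parts of read depth and of the spread between libraries in these calls were not tested.

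Levels were compared between genes per gene length. By FPKM in LX-2Vector cells, NRP1 stood first at 43.0 ± 0.288, followed by VEGFB at 24.8 ± 1.05, VEGFC at 21.8 ± 0.798 and ESM1 at 14.2 ± 1.10 (SD, n = 3). VEGFA at 6.30 ± 0.668 and NRP2 at 6.24 ± 0.230 FPKM overlapped, as did ANGPTL4 at 0.795 ± 0.213 and PGF at 0.609 ± 0.0526 FPKM. FLT1 at 0.251 ± 0.0225 FPKM and ANGPT1 at 0.0178 FPKM came last. In LX-2FAP cells NRP1 led at 47.1 ± 1.85 FPKM and VEGFC came next at 23.4 ± 0.961, while ESM1 at 21.2 ± 1.62 and VEGFB at 21.1 ± 1.02 FPKM overlapped, so by FPKM ESM1 was at the level of VEGFB.

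The place of VEGFA in this order depended on the length it was divided by. The deposited FPKM of VEGFA used 14431 bases, the merged length of all its annotated exons, whereas its longest annotated coding transcript has 3535 bases. Divided by the longest coding transcript of each gene, a choice made after seeing the data, VEGFA stood at 25.5 ± 2.62 CPM per kilobase in LX-2Vector cells, overlapping VEGFC at 27.4 ± 0.959 and above ESM1 at 17.5 ± 1.28 (SD, n = 3). In LX-2FAP cells on that scale ESM1 at 26.6 ± 2.09 lay above VEGFA at 22.2 ± 1.06 CPM per kilobase. The exchange of order between ESM1 and VEGFA was thus seen on this scale but not by FPKM, where ESM1 was above VEGFA in both groups. VEGFB and VEGFC overlapped in LX-2FAP cells on this scale, at 30.5 ± 1.40 and 29.9 ± 1.16 CPM per kilobase.

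**Figure D3:**
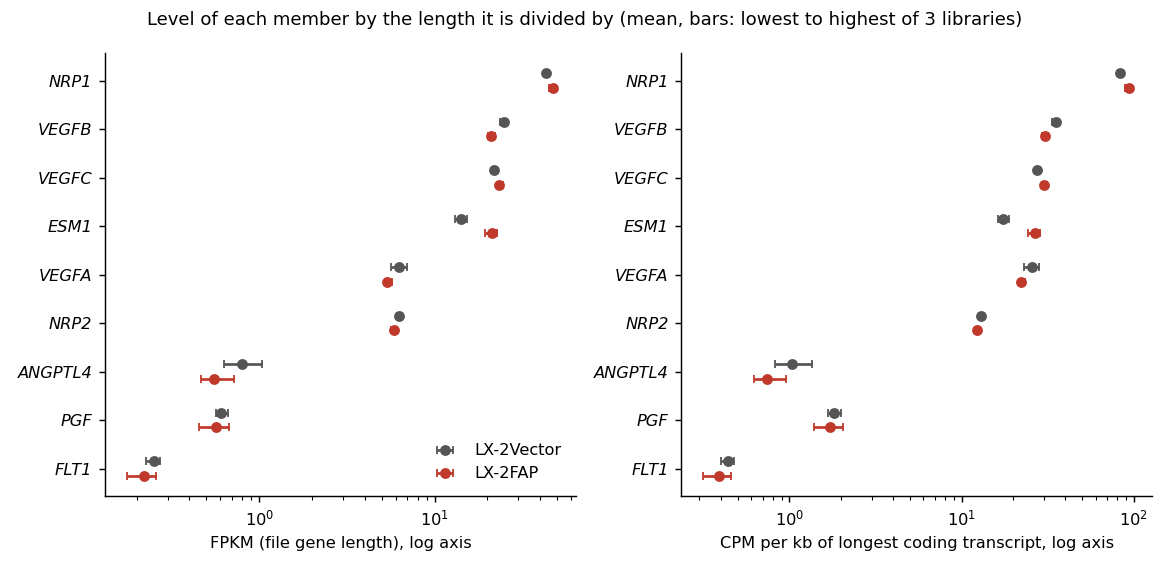
Level of the 9 tested members in LX-2Vector (grey) and LX-2FAP (red) cells on log axes, as deposited FPKM (left) and as CPM per kilobase of the longest coding transcript (right). Points are means and bars run from the lowest to the highest of 3 libraries. NRP1 leads on both scales, and VEGFA moves from 6.30 FPKM, beside NRP2, to 25.5 CPM per kilobase, beside VEGFC.

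As shares of the summed FPKM of the 5 ligands (VEGFA, VEGFB, VEGFC, VEGFD and PGF), VEGFC took 39.8%, 41.1% and 41.2% in the LX-2Vector libraries and 46.3%, 46.6% and 45.8% in the LX-2FAP libraries. VEGFB took 48.3%, 45.5% and 45.0% against 41.9%, 41.1% and 42.3%. Neither share overlapped between the groups, and the share of VEGFA, 10.5%, 12.1% and 12.6% against 10.8%, 10.7% and 10.4%, did. The summed level was 53.6 ± 1.52 FPKM in LX-2Vector and 50.5 ± 2.05 FPKM in LX-2FAP cells. With the longest coding transcripts as lengths, VEGFC took 30.5% ± 0.135 against 35.5% ± 0.200, VEGFB 39.1% ± 2.10 against 36.1% ± 0.638 and VEGFA 28.4% ± 2.21 against 26.3% ± 0.390. The larger share of VEGFC in LX-2FAP cells was seen with both lengths. A length scales a gene alike in every library, so the second length is no independent check on this. These are descriptions of libraries, and shares of a sum cannot move independently.

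Other genes of the pathway were counted in lists fixed with earlier results of these data known. Of the VEGF ligand and receptor genes that are not members (VEGFD, KDR and FLT4), 2 were tested and 0 called. KDR, the main signalling receptor of VEGFA, stood at 2.79 ± 0.224 and 2.40 ± 0.300 CPM in LX-2Vector and LX-2FAP cells, a log2 change of -0.20 (95% interval -0.55 to 0.14, edgeR adjusted p = 0.510). Of 3 tested angiopoietin and TIE receptor genes 0 were called, with TIE1, an orphan receptor that modulates TEK, at 83.2 ± 3.76 and 80.5 ± 0.490 CPM (edgeR adjusted p = 0.588). In these 2 lists and the 2 that follow, 0, 0, 1 and 0 tested genes had an unadjusted p under 0.05. Of 4 tested angiopoietin-like genes 0 were called, the most expressed being ANGPTL2 at 49.2 ± 0.926 and 43.3 ± 2.67 CPM (log2 change -0.18, edgeR adjusted p = 0.0680). ANGPTL2 passed with library size alone (adjusted p = 0.0399) and without LX-2FAP replicate 1 (0.0203). Of 6 tested genes for VEGFC processing and the neuropilin adaptor 0 were called. CCBE1, the cofactor of VEGFC cleavage, had a log2 change of -0.04 (edgeR adjusted p = 0.752) that turned to 0.04 without LX-2Vector replicate 3 and to 0.01 without LX-2FAP replicate 2.

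The class 3 semaphorins and plexins share the neuropilins with the VEGF ligands. Of 10 tested, 3 were called, all lower in LX-2FAP cells, against 2.73% of all tested genes called lower. An unadjusted edgeR p under 0.05 was reached by 4 of the 10 (22.2% of all tested genes). For 7 of the 10 the groups did not overlap (26.4% of all tested genes). The median log2 change was -0.05. SEMA3B, a secreted ligand of the neuropilins, had 17.1, 15.6 and 17.5 CPM in the LX-2Vector libraries and 12.1, 8.01 and 8.78 CPM in the LX-2FAP libraries. No LX-2FAP library reached the lowest LX-2Vector library, and the log2 change was -0.78 (SE 0.12, edgeR adjusted p = 0.00438). The SEMA3B call held when any 1 library was left out, at an adjusted p of 0.0487 without LX-2FAP replicate 3. It was lost with limma (0.113 and 0.112 for its pseudocounts of 0.1 and 1). PLXNA3, a plexin that signals with the neuropilins, fell by 0.34 on the log2 scale (SE 0.07, edgeR adjusted p = 0.0165). PLXND1, the receptor of SEMA3E, fell by 0.50 on the log2 scale (SE 0.13, edgeR adjusted p = 0.0405). When replicate 1 or 3 of LX-2Vector, or 2 or 3 of LX-2FAP, was left out, the count of called genes in the list went from 3 to 1. In each of these fits PLXNA3 and PLXND1 lost their calls, and with either limma fit the count was 0.

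Of 8 tested angiogenesis inhibitors, 1 was called, against 5.29% of all tested genes. THBS2, a matrix glycoprotein that restrains vessel growth, had 144.4, 126.4 and 162.6 CPM in the LX-2Vector libraries and 123.6, 93.7 and 102.3 CPM in the LX-2FAP libraries. The groups did not overlap, with a log2 change of -0.44 (SE 0.09, edgeR adjusted p = 0.0144) that did not pass without LX-2Vector replicate 1 (0.0501) or either of LX-2FAP replicates 2 (0.0694) and 3 (0.101). DESeq2 (adjusted p = 0.0616) and limma (0.121 and 0.125 for its pseudocounts of 0.1 and 1) did not call THBS2 either. The list held 3 called genes without LX-2FAP replicate 1, 3 without the filter on low counts and 2 with library size alone. It held 0 with either limma fit and whenever the left-out library cost THBS2 its call. The median log2 change of the list was -0.10.

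**Figure D4:**
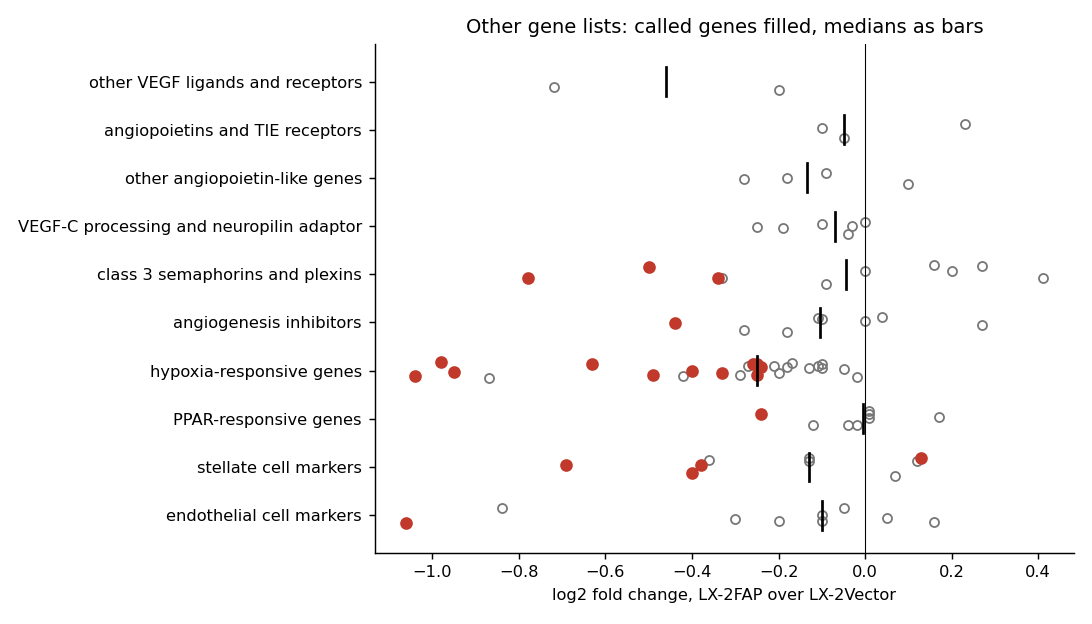
Log2 change of LX-2FAP over LX-2Vector for each tested gene of the other lists, 1 row per list. Filled points passed the edgeR test, open points did not, and black bars are list medians. The hypoxia-responsive row lies wholly below 0, with a median of -0.25 and 11 of 25 genes called, against 5.29% of all tested genes.

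Hypoxia-responsive genes that are not members were set beside VEGFA and ANGPTL4, a list that was taken up because earlier results of these data had shown such genes lower, so its direction is no independent evidence. Of 25 tested, 11 were called lower and 0 higher, against 2.73% and 2.57% of all tested genes. An unadjusted edgeR p under 0.05 was reached by 17 of the 25 (22.2% of all tested genes). For 13 of the 25 the groups did not overlap (26.4% of all tested genes). The median log2 change was -0.25. NDRG1, a stress-response gene, had 130.7, 123.5 and 243.0 CPM in the LX-2Vector libraries and 120.2, 63.7 and 66.8 CPM in the LX-2FAP libraries (log2 change -0.98, SE 0.23, edgeR adjusted p = 0.0249). LX-2Vector replicate 3 stood high and LX-2FAP replicate 1 lay just below the controls. Without LX-2Vector replicate 3 the NDRG1 log2 change was -0.59 (edgeR adjusted p = 0.0638), and the call was also lost without LX-2FAP replicate 2 (0.107) or 3 (0.147), with DESeq2 (0.139) and with limma (0.153 and 0.160 for its pseudocounts of 0.1 and 1). CA12, a carbonic anhydrase, fell by 1.04 and PPFIA4, a liprin, by 0.95 on the log2 scale (edgeR adjusted p = 0.0177 and 0.0115). DDIT4, an inhibitor of mTOR signalling, and PFKFB4, a regulator of glycolysis, fell by 0.63 and 0.49 on the log2 scale (edgeR adjusted p = 0.0120 and 0.0252), and 41.2% of the DDIT4 exon bases are shared with a gene on the opposite strand. The count of 11 went to 2 without LX-2Vector replicate 3, to 1 without LX-2FAP replicate 2 and to 0 without LX-2FAP replicate 3. It went to 5 with DESeq2, to 0 with either limma fit and to 17 without the filter on low counts.

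Library by library, the median of these 25 genes relative to the LX-2Vector mean was -0.08, -0.07 and 0.13 on the log2 scale in the LX-2Vector libraries and -0.19, -0.33 and -0.30 in the LX-2FAP libraries. VEGFA stood at -0.15, -0.00 and 0.14 and then at -0.12, -0.23 and -0.25. ANGPTL4 stood at -0.33, -0.14 and 0.38 and then at -0.12, -0.74 and -0.71. Within the LX-2Vector group VEGFA, ANGPTL4 and the list median were all highest in replicate 3, and within the LX-2FAP group all 3 were highest in replicate 1. The part of these library differences in the lower VEGFA level was not tested. ESM1 was lowest in replicate 1 of each group.

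**Figure D5:**
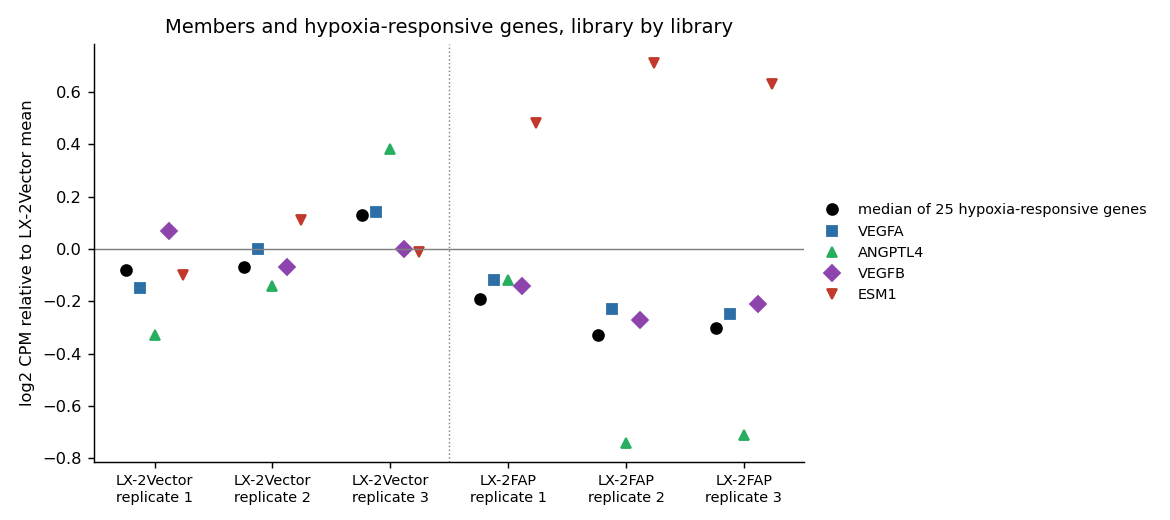
Log2 CPM relative to the LX-2Vector mean (y axis) in each library (x axis) for the median of 25 hypoxia-responsive genes, for VEGFA, ANGPTL4 and VEGFB, and for ESM1. Points within a library are set side by side for legibility. ESM1 lies at 0.48 to 0.71 in the LX-2FAP libraries, where the other 4 series lie below 0.

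Of 8 tested genes that respond to PPAR, a known inducer of ANGPTL4, 1 was called, against 5.29% of all tested genes. ACADVL, an enzyme of fatty acid oxidation, averaged 168.7 ± 3.78 CPM in the control cells and 143.3 ± 1.67 CPM in LX-2FAP cells (log2 change -0.24, SE 0.04, edgeR adjusted p = 0.00765). It did not pass without LX-2FAP replicate 3 (0.0775) or with limma (0.0922 and 0.0949 for its pseudocounts of 0.1 and 1). The list median was -0.01.

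Because ESM1, VEGFR and TIE genes are known from endothelium, markers of that cell type were counted. Of the 15 listed, 9 were tested and 1 was called, against 5.29% of all tested genes. VWF, a clotting factor of endothelial cells, had 2.80, 1.77 and 2.82 CPM in the LX-2Vector libraries and 1.46, 0.667 and 1.38 CPM in the LX-2FAP libraries (log2 change -1.06, SE 0.25, edgeR adjusted p = 0.0268). VWF lost its call without LX-2Vector replicate 1 (0.101) or 3 (0.0704) and without LX-2FAP replicate 2 (0.107) or 3 (0.101). The summed level of the list was 107.9 to 117.4 CPM in the LX-2Vector libraries and 105.0 to 106.6 CPM in the LX-2FAP libraries, most of it TIE1, so no LX-2FAP library exceeded an LX-2Vector library in this sum. EMCN was listed at 0 in every LX-2Vector library.

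Of 9 tested stellate markers, 4 were called, against 5.29% of all tested genes. COL3A1, COL1A1 and PDGFRB, which encode fibrillar collagens and the PDGF receptor β, fell by 0.69, 0.40 and 0.38 on the log2 scale (edgeR adjusted p = 0.00765, 0.0135 and 0.0269), and VIM, an intermediate filament gene, rose by 0.13 (edgeR adjusted p = 0.0372). The count went to 1 when replicate 1 of LX-2Vector or 2 of LX-2FAP was left out. It went to 0 without LX-2FAP replicate 3 and with either limma fit. The summed level of the list was 2301.3 to 2435.2 CPM in the LX-2Vector libraries and 2348.4 to 2480.6 CPM in the LX-2FAP libraries, most of it VIM at a mean of 1544.9 and 1694.6 CPM, so the sum does not show the lower levels of COL3A1, COL1A1 and PDGFRB. Of 8 hepatocyte markers 1 was tested and 0 called, the tested one being SERPINA1 at 13.3 ± 1.11 and 11.0 ± 0.653 CPM (edgeR adjusted p = 0.0809, unadjusted p under 0.05).

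The genes most like a member were ranked by Pearson r of log2 CPM over the 6 libraries, among tested genes with a mean of 100 counts or more, as a description. Nearest to ESM1 were TARS1 (r = 0.999), CDKN3 (0.996), SLTM (0.996), TM9SF3 (0.996) and PGM3 (0.996). TARS1, which encodes threonyl-tRNA synthetase, had a log2 change of 0.16 against 0.61 for ESM1. The likeness is thus in the relative spacing of the libraries and not in the size of the change. Nearest to VEGFA were PDE4A (0.997), ENSG00000264112 (0.995), HRH1 (0.994), GSDMB (0.991) and CHSY1 (0.989). Nearest to ANGPTL4 were FTX (0.992), AMPD3 (0.991), AK4 (0.990), IRF2BP2 (0.990) and RNF213-AS1 (0.989), of which AK4, a mitochondrial adenylate kinase, had a log2 change of -0.64. These r rest on 6 libraries in 2 groups and are the highest of 11555 or 11556 genes ranked, the points sharing group and library depth.

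In the GO terms that the deposited table pairs with genes, all 10 members carried angiogenesis, a term held by 1.15% of tested genes. The VEGF receptor signaling pathway term was held by 7 members, all but ESM1, ANGPT1 and ANGPTL4. The response to hypoxia term was held by VEGFA, VEGFB, VEGFC, PGF and ANGPTL4 and by 0.750% of tested genes. Of those 5, VEGFB was called lower and the other 4 did not pass the test, with log2 changes of 0.13 for VEGFC, -0.20 for VEGFA, -0.11 for PGF and -0.46 for ANGPTL4.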

How the data were processed

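RNA was sequenced from 3 LX-2Vector and 3 LX-2FAP libraries, grouped by sample title. The labels describe libraries made after removal of ribosomal RNA, and the methods also name a poly(A) step. The authors deposited whole-number read counts per gene (not normalized) and FPKM values that the authors computed from counts and gene length. The submitters' processing notes name HISAT2 2.0.5, featureCounts 1.5.0-p3, DESeq2 1.16.1, edgeR and the build hg18. The deposited table holds no coordinates, and those given here were looked up by Ensembl identifier in GENCODE release 29 (GRCh38), which held 58337 of 60605.

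The counts went into edgeR 4.0.16 and its quasi-likelihood test (R 4.3.3, TMM, default filter with a minimum count of 10 and a minimum total of 15), which kept 18275 genes, with Benjamini-Hochberg adjustment over all of them and no covariate. Called genes are those with an adjusted p under 0.05. Standard errors and 95% intervals were derived from the test statistic. With 3 libraries against 3, an exact 2-sided permutation test of one gene cannot go below 0.1. CPM are TMM-scaled. Likeness used log2(CPM + 0.5).

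The members and lists were chosen with earlier results of these data known. Named genes are FAP, the members, up to 5 called genes per list by size of change or, with none called, the gene with the highest FPKM, and the 5 genes most like each of ESM1, VEGFA and ANGPTL4. Ratios between members, the markers given by FPKM and the length of the longest coding transcript were chosen after values were seen. Alternatives were DESeq2 1.42.0, DESeq2 size factors, library size alone, other filters, a block for the replicate number, each library left out, and limma 3.58.1 on log2(FPKM + 1) or log2(FPKM + 0.1). The edgeR fit was tested on simulated counts, where the share of false calls was above the threshold and most of the smallest changes were missed, which bears on small differences near the threshold. Read depth limits PGF, FLT1, ANGPT1 and ANGPTL4, and intervals cover the spread between libraries.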

Additional observations from a re-analysis of the deposited data

How the results depend on the processing

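The log2 fold changes of ESM1, VEGFA, VEGFB, VEGFC, NRP1 and NRP2 kept their sign in all 14 alternatives. The numbers of called genes did not hold: 967 genes were called in the fit as reported (469 higher, 498 lower), 1606 without the filter on low counts (929 lower), 2 by either limma fit (1 higher, 1 lower, with 3662 and 3638 at an unadjusted p under 0.05), and 239 higher against 809 lower with library size alone, which moved the median of all genes from -0.01 to -0.04. Leaving out 1 library gave 26 to 1949 called genes, 14 to 892 higher and 12 to 1057 lower, the extremes coming without replicates 3 and 1 of LX-2FAP. Of the 8 tested members other than ESM1, 2 were called in the fit as reported, 1 with library size alone, 1 with DESeq2, 0 with either limma fit (3 at an unadjusted p under 0.05) and 0 to 3 with 1 library left out. Over the pathway lists together, DESeq2 called 10 genes, limma 0 (25 at an unadjusted p under 0.05) and the fits with 1 library left out 1 to 24, against 16 in the fit as reported. DESeq2 gave no adjusted p for PGF, FLT1 and ANGPTL4. Without the filter on low counts edgeR estimated an infinite prior degrees of freedom (11.8 with the filter), so each gene took the pooled spread and the adjusted p-values of that fit do not reflect the gene's own replicates.

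PGF turned from -0.11 to 0.04 without LX-2FAP replicate 1, and CCBE1 from -0.04 to 0.04 without LX-2Vector replicate 3 and to 0.01 without LX-2FAP replicate 2 (range with 1 library left out -0.24 to 0.04 for PGF and -0.08 to 0.04 for CCBE1). NRP1 stood 1.73 times above the next member by FPKM in LX-2Vector cells, 5.44 times by CPM with no division by length and 2.38 times with the longest coding transcripts, and the share of VEGFA among the ligands was 11.8%, 45.3% and 28.4% in the same order, which follows from the lengths. Of the 15 genes most like a member, 7 were also among the nearest by Spearman rho. Over 6 libraries rho takes few values and genes tie at 1.00, so this is no check on the ranking. The cause of the other shifts was not tested. Same-numbered libraries correlated at -0.04, 0.04 and -0.01 in their deviations from the group means, and differently numbered ones at -0.11 to 0.12. The numbers thus showed no sign of pairing, which 3 libraries a group cannot exclude. With the replicate number as a block, 975 genes and 2 members were called, and the angiogenesis inhibitors had 2 called genes rather than 1.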
